A study of Mus musculus with 2 samples.

Results

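The glial genes described here are Rlbp1, Glul, Slc1a3, Gfap, S100b, Clu, Apoe, Vim and Nes, 9 of 18194 named genes on the array, chosen by symbol as genes known from Müller glia, astrocytes and their precursors. They were read by 25 of the 45101 probe sets, each annotated with a single gene symbol. The data came from 2 single cells of CD1 mice, an albino outbred strain, taken after papain digestion of the retina: 1 at embryonic day 12.5 (E12.5), called the embryonic cell here, and 1 at postnatal day 0 (P0), the day of birth, called the newborn cell. Neither mouse carried a transgene or was treated, as far as the labels say, and both cells are labelled as ciliary body, which the submitters inferred from each cell's own expression profile. With 1 cell at each age there was no replicate, so each difference is between these 2 cells, no test was possible, and age cannot be told apart from the individual cell.

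Müller glia are the main glia of the retina and arise late, from the same progenitors as the retinal neurons. They clear glutamate through the transporter encoded by Slc1a3, turn it into glutamine with the enzyme encoded by Glul, and hold retinaldehyde on the binding protein encoded by Rlbp1, which pigment epithelium also makes. Astrocytes enter the retina from the optic nerve and are known by the filament protein Gfap and the calcium-binding protein S100b, while Vim, Nes and Slc1a3 are also active in progenitors before any glia form.

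A signal is the MAS5 value of a probe set, on a linear scale. A gene was called above background when the signal of its brightest probe set exceeded a limit set for each array, the 99th percentile of 174 probe sets for gene families of other organs, such as odour receptors and hair proteins, which was 259.8 for the embryonic cell and 349.6 for the newborn cell. The median signal over all probe sets was 43.2 and 42.2, and the signals of both arrays had the same mean of 499.8 when 2% were left out at each end. The 3 control probe sets for 18S ribosomal RNA read 7813, 10783 and 10356 in the embryonic cell and 258, 1696 and 378 in the newborn cell, and their part in the results below was not tested. Of the markers listed for the ciliary margin and ciliary body, 7 of 10 were above the limit in each cell and 6 in both, which is no independent support for a label given by expression.

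In the newborn cell 8 of the 9 glial genes were above background, all but Apoe. In the embryonic cell 5 were, namely Glul, Slc1a3, Clu, Vim and Nes, and these 5 were above it in both cells. Over all named genes the shares were 28.3% in the newborn cell, 30.2% in the embryonic cell and 18.6% in both. The genes were chosen for their known role and with results of these cells in view, so nothing is read from their count against those shares. At the level of probe sets, 17 of 25 passed the limit in the newborn cell, where 22.3% of all probe sets with 1 symbol did, and 12 in the embryonic cell, where 24% did, 11 of them in both and 7 in neither.

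**Figure D1:**
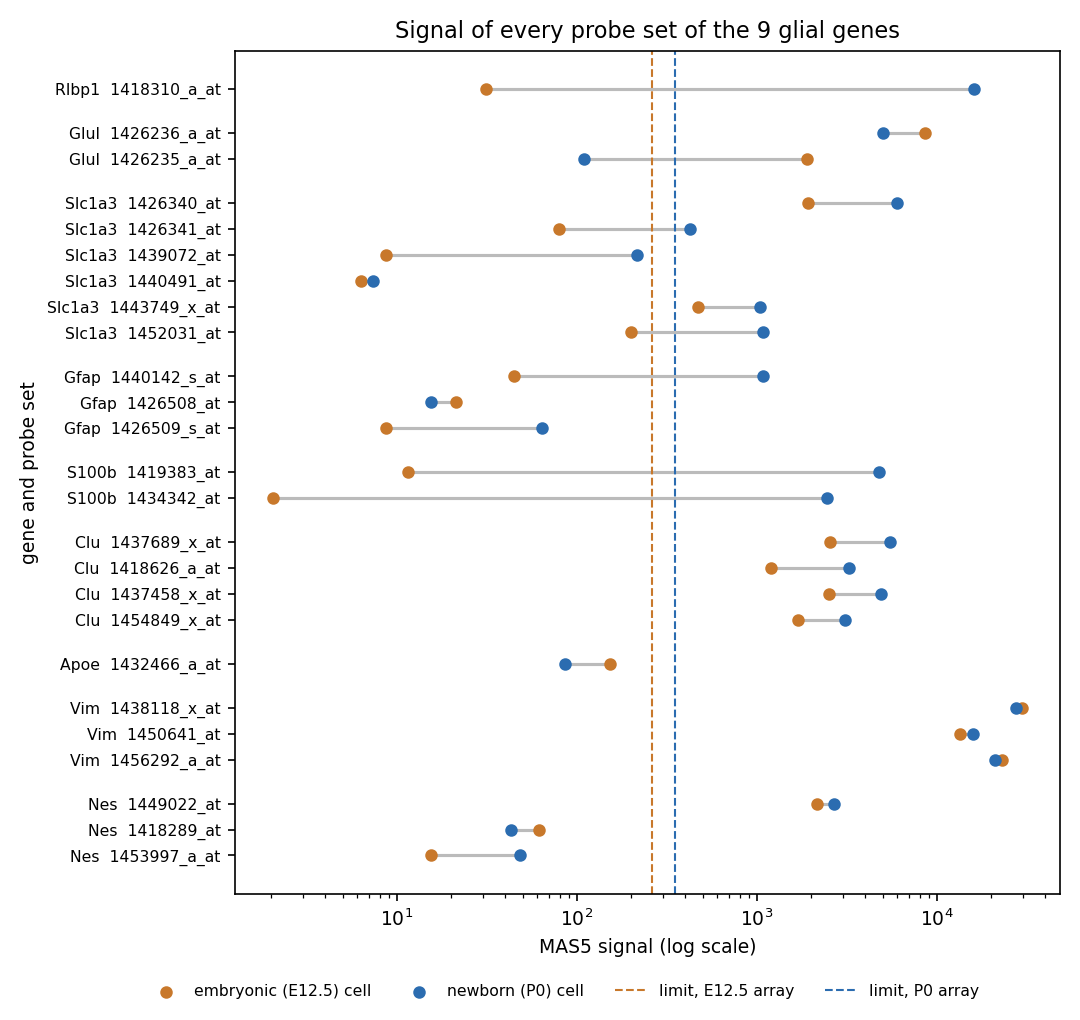
MAS5 signal (log axis) of each of the 25 probe sets in the embryonic cell (orange) and the newborn cell (blue), with the background limit of each array as a dashed line. Rlbp1 and both probe sets of S100b lie far apart in the 2 cells, on opposite sides of the limits, while the 3 probe sets of Vim nearly coincide.

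Rlbp1, S100b and Gfap made up the group found in the newborn cell alone. The calling rule asked for a ratio of 4 or more, with any signal under its array's limit first set to that limit, and a fold that uses the limit is given as "at least". By this rule 3 of the 9 genes were higher in the newborn cell and 0 in the embryonic cell, where 9.22% and 7.3% of all named genes were. Those 3 were not picked at random from the array, and nothing is read from the comparison.

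Rlbp1 encodes the cellular retinaldehyde-binding protein, CRALBP, which carries 11-cis-retinoids in Müller glia and pigment epithelium. Its only probe set (1418310_a_at) had a signal of 31.1 in the embryonic cell and 16125 in the newborn cell. The first value lies well under the limit and the second far above it, so Rlbp1 was at least 62.1-fold higher in the newborn cell. A single probe set gives no second reading of this difference.

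S100b encodes a small calcium-binding protein of astrocytes, which mature Müller glia also make. Its brighter probe set (1419383_at) read 11.6 in the embryonic cell and 4787 in the newborn cell, at least 18.4-fold higher. The second (1434342_at) read 2.04 and 2461, at least 9.48-fold higher. Both probe sets therefore put S100b above background in the newborn cell and under it in the embryonic cell.

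Gfap encodes the intermediate filament protein of astrocytes, which Müller glia make in quantity after injury. Its brightest probe set (1440142_s_at) read 44.4 in the embryonic cell and 1073 in the newborn cell, at least 4.13-fold higher, just past the threshold of 4. The other 2 probe sets were under the limits in both cells, 1426509_s_at with 8.74 and 64.2 and 1426508_at with 21.4 and 15.4. The reading of Gfap in the newborn cell thus rests on 1 probe set of 3, and its suffix, _s_at, marks probes shared by more than 1 transcript. Without probe sets of that kind Gfap was above background in neither cell. With arrays scaled to the hybridisation spike-ins its log2 ratio was at least 1.18, a lower bound that falls short of 4-fold.

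RefSeq sequence upstream of the start site was read for 8 of the 9 genes, all but Clu (assembly GRCm38.p6, 1 to 3 start sites a gene), and is shown for the 3 genes found in the newborn cell alone and for Vim, which had similar signals in both cells. Each window holds the 250 bases before the start, written 5′ to 3′ on the strand of the gene, and the RefSeq record of Rlbp1 reaches further upstream than the start used here. Capitals mark matches, on either strand, to any of 6 motifs. The searched letters were AACAAT, known as a core that SOX factors bind. TTGGCA was searched as part of the site of nuclear factor I. For LIM homeobox factors the letters were TAATTA, and for STAT factors they were TTCNNNGAA. The retinal factor CRX was represented by TAATCC. The TATA box was searched as TATAAA.
Rlbp1 (chr7:79387028-79387277, minus strand): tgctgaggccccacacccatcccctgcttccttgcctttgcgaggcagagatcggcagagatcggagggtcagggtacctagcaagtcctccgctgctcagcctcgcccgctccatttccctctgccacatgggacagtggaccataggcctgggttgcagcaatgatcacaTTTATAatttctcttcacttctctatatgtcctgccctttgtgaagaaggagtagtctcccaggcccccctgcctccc
S100b (chr10:76253586-76253835, plus strand): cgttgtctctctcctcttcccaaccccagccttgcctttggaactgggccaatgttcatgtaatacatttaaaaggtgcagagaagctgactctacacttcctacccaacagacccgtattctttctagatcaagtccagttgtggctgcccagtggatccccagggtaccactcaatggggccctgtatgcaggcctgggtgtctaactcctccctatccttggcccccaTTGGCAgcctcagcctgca
Gfap (chr11:102897201-102897450, minus strand): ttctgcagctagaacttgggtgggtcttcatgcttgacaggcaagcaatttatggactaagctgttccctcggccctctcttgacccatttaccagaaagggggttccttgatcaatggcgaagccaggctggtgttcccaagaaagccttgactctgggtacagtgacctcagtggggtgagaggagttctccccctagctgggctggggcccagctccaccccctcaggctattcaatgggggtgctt
Vim (chr2:13574061-13574310, plus strand): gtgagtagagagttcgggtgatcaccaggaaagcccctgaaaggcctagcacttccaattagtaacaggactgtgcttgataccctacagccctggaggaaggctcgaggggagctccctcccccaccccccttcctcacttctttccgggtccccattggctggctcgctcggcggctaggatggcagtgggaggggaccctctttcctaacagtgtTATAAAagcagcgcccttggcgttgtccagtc
The Vim window held TATAAA at 32 to 27 bases before the start, and that of Rlbp1 held it on the opposite strand at 78 to 73 bases. S100b had 1 match to TTGGCA, at 19 to 14 bases, and the Gfap window had no match to any of the 6 motifs. Over all 32851 windows of the same length, the TATA box letters occurred in 12.4%, those of nuclear factor I in 12.3%, of SOX factors in 9.42%, of STAT factors in 7.02%, of CRX in 6.25% and of LIM homeobox factors in 4.84%. The guanine and cytosine content was 57.2% for Rlbp1, 53.6% for S100b, 55.6% for Gfap and 58.4% for Vim, against a median of 52.4% over all windows. The matches describe these windows only and show no binding.

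The transporter gene Slc1a3 and the chaperone gene Clu were above background in both cells, with the higher signal in the newborn cell in each of their readings above background. Slc1a3 encodes GLAST, the glutamate transporter of Müller glia, astrocytes and radial precursors. Its brightest probe set (1426340_at) read 1922 in the embryonic cell and 5984 in the newborn cell, a ratio of 3.11. That is just outside the threshold of 4, as Gfap is just inside it. Of the further 5 probe sets, 1443749_x_at read 471 and 1037 and was also above the limit in both cells, a ratio of 2.20. In the newborn cell alone, 1452031_at (200.2 and 1079.6, at least 4.16-fold) and 1426341_at (79.4 and 425, at least 1.64-fold) were above it. The remaining pair, 1439072_at (8.64 and 215) and 1440491_at (6.32 and 7.37), lay under both limits. All 4 probe sets above background thus had the newborn cell higher, by ratios from 1.64 to 4.16, of which those of the pair under the limit in the embryonic cell are lower bounds. The mean log2 signal over all 6 probe sets was also tried in place of the brightest. Slc1a3 then read 96.1 in the embryonic cell, under the limit, and 406 in the newborn cell. Its log2 ratio was then a lower bound, at least 0.65, where the brightest probe set gave a measured 1.64.

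Clu encodes clusterin, also called apolipoprotein J, a secreted chaperone that binds lipids and complement. Its 4 probe sets were above the limit in both cells. They read 2547 in the embryonic cell and 5461 in the newborn cell (1437689_x_at), 2497 and 4852 (1437458_x_at), 1193 and 3240.3 (1418626_a_at), and 1691 and 3084 (1454849_x_at). The ratios were 2.14, 1.94, 2.72 and 1.82, closer to each other than the usual spread between probe sets of a gene. That spread, over 974 genes with several probe sets above background in both cells, was a standard deviation of 0.83 in the log2 ratio, a factor of 1.78. It comes from probe sets read in the same cells, so it does not cover variation between cells or the loss of a transcript before amplification. All of the Clu probe sets but 1418626_a_at carry the suffix _x_at, which marks possible cross-hybridisation. Without them the log2 ratio of Clu was 1.44.

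Glul encodes glutamine synthetase, the glial enzyme that joins ammonia to glutamate, and was the one gene of the 9 whose readings both leaned to the embryonic cell. Its brighter probe set (1426236_a_at) read 8569 in the embryonic cell and 5024 in the newborn cell, a ratio of 1.71 toward the embryonic cell. The dimmer one (1426235_a_at) read 1887 and 109, under the limit in the newborn cell, and so at least 5.40-fold higher in the embryonic cell. The probe sets share the direction but differ in size and in whether Glul passes the 4-fold threshold. With the mean over both in place of the brighter one, the log2 ratio was -2.44, past 4-fold.

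Vim and Nes encode intermediate filament proteins of progenitors and glia, and neither differed by more than 1.25-fold in a probe set above background. Vim, for vimentin, read 29725 in the embryonic cell and 27525 in the newborn cell (1438118_x_at), 22869 and 20859 (1456292_a_at), and 13406 and 15729 (1450641_at). Of these, 2 were slightly higher in the embryonic cell and 1 in the newborn cell, all within a factor of 1.17. Nes, for nestin, read 2141 and 2666 (1449022_at), a ratio of 1.25 toward the newborn cell. Its other 2 probe sets were under both limits, with 61.8 and 43.2 (1418289_at) and 15.5 and 48.0 (1453997_a_at). Scaling to the spike-ins turned the sign of Nes, to a log2 ratio of -0.55, and quantile normalisation that of Vim, to 0.42.

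Apoe, which encodes the lipid carrier that glia and macrophages secrete, was not detected. Its single probe set (1432466_a_at) read 152 in the embryonic cell and 86.2 in the newborn cell, under the limit of each array. No fold is given for it. Limits taken at the 95th percentile instead were 113 and 91.8, and by those Apoe would be above background in the embryonic cell only.

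**Figure D2:**
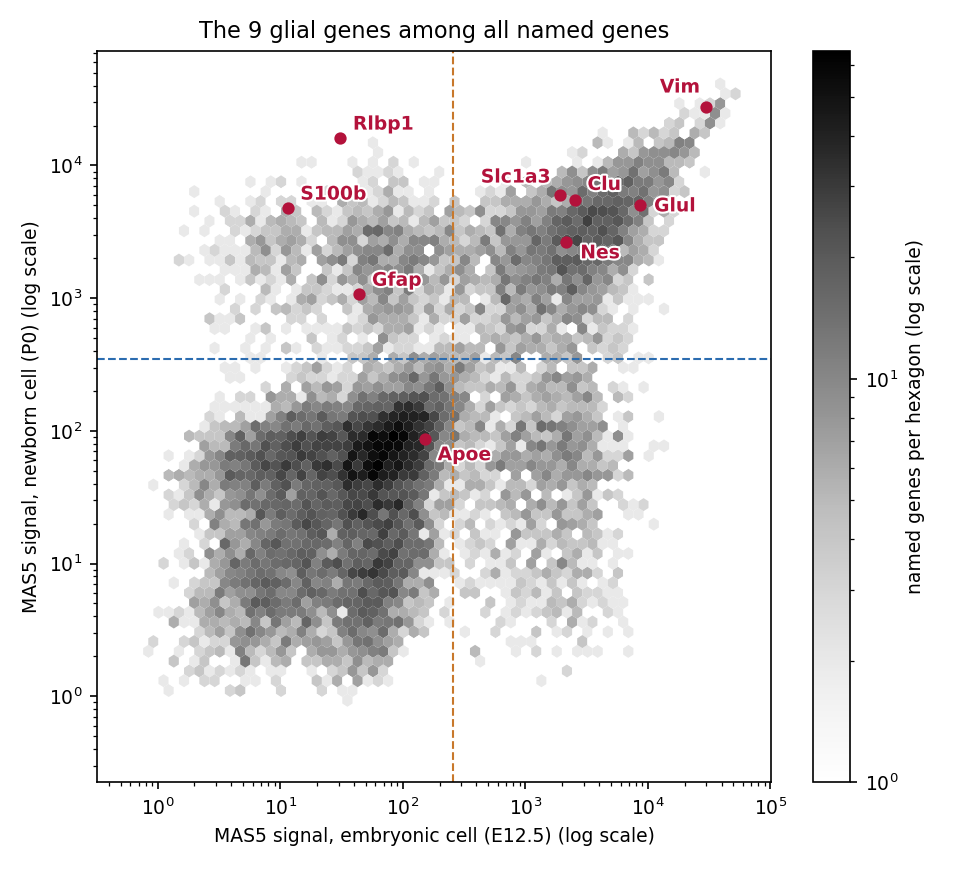
MAS5 signals (log axes) of all 18194 named genes in the embryonic and newborn cells as grey hexagons, with the 9 glial genes in red and the limits as dashed lines. Rlbp1, S100b and Gfap lie in the upper left field (newborn cell alone), Apoe in the lower left (neither cell) and the other 5 in the upper right (both cells).

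Ordered by log2 ratio of the newborn over the embryonic cell after the limits, the 8 detected genes were Rlbp1 (5.96), S100b (4.20), Gfap (2.05), Slc1a3 (1.64), Clu (1.10), Nes (0.32), Vim (-0.11) and Glul (-0.77). Among the 5 measured in both cells, Slc1a3 and Clu, Clu and Nes, Nes and Vim, and Vim and Glul are each neighbours closer than 0.83, the spread between probe sets. The first 3 values are lower bounds. The median was 1.37, where the 7263 genes above background in at least 1 cell had 0.02. With the arrays scaled to the spike-ins, which multiplied the newborn array by 0.548 and so lowered every ratio alike, the medians were 0.50 and -0.85. That scaling also changed the share of all called genes that were higher in the newborn cell from 55.8% to 33.0%.

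**Figure D3:**
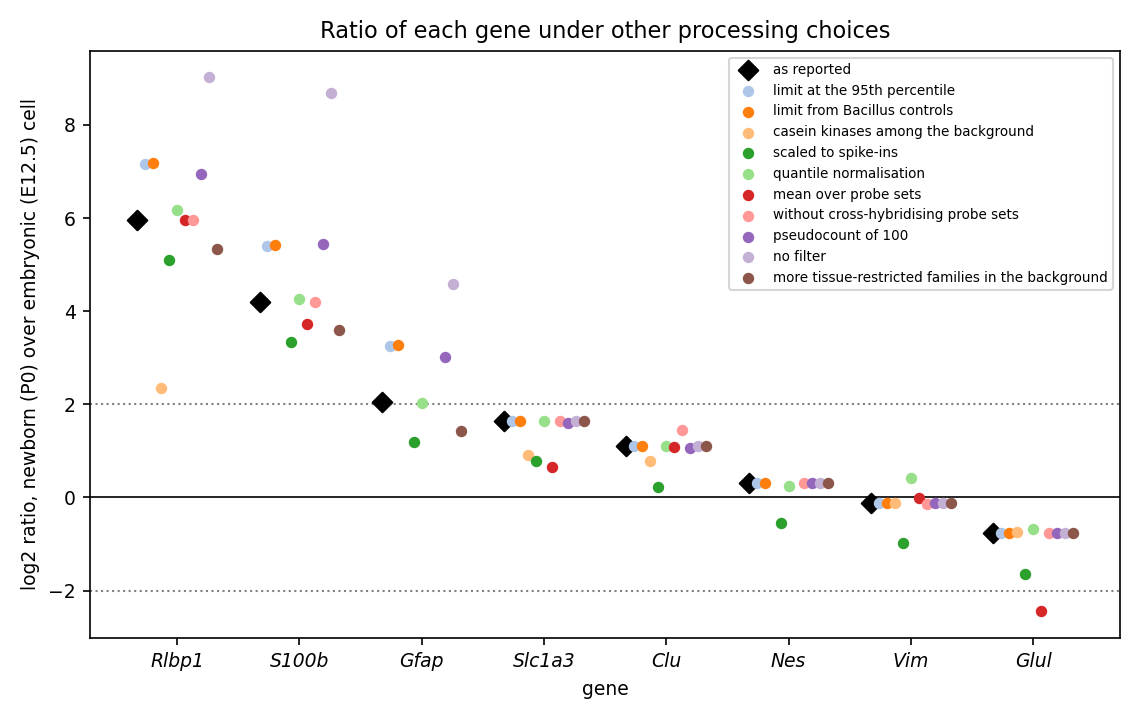
Log2 ratio of the newborn over the embryonic cell (vertical axis) for the 8 detected genes as reported (black diamonds) and under other processing choices (coloured points), with dotted lines at 4-fold. Rlbp1 stays above the upper line in each choice shown, Gfap crosses it, and Nes and Vim cross 0.

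Other genes known from Müller glia gave a mixed picture. Of 21 measured, 13 were above background in the newborn cell, 9 in the embryonic cell and 8 in both. The shares of all named genes were 28.3%, 30.2% and 18.6%. At least 4-fold higher in the newborn cell were Sox9, a gene for a gliogenic SOX factor (48.1 and 9110.5, at least 35.1-fold), the gliogenic factor gene Nfia (5.95 and 8210.0, at least 31.6-fold), Id1 (133 and 4748, at least 18.3-fold), Car2, for a carbonic anhydrase (66.7 and 2421, at least 9.32-fold) and the LIM homeobox gene Lhx2 (2303 and 16759, 7.28-fold). Another probe set of Sox9 was above the limit in the newborn cell alone and also leaned to that cell. Its fold uses the embryonic limit, so it is a lower bound, and that bound was short of 4-fold. On the embryonic side were the Notch effector gene Hes1 (4140 and 480, 8.63-fold) and the carbonic anhydrase gene Car14 (7226 and 22.8, at least 20.7-fold). The other 6 above background in both cells were under 4-fold. Sox2, for another SOX factor, read 10369 and 11739. The secreted Wnt modulator gene Dkk3 read 10470 and 12623, and 2483 and 8440 in a second probe set. Dbi, for an acyl-CoA-binding protein, read 8783 and 26589, and 1 of its further 3 probe sets, all above background, passed 4-fold (2279 and 28384, 12.5-fold). Id3 (18550 and 4818) and the eye field gene Rax (949 and 494) had 1 probe set each, with the larger signal in the embryonic cell. The probe sets of the nuclear factor gene Nfib disagreed, with 2371 and 840 in the one used, but 2.37 and 11350 (at least 43.7-fold) and 75.1 and 2737 (at least 10.5-fold) in a further pair. Of 8 Müller glia markers, Rlbp1, Glul and Slc1a3 included, 6 were above background in the newborn cell and 3 in the embryonic cell. The other 2, the water channel gene Aqp4 (98.3 and 70.1) and the potassium channel gene Kcnj10 (4.38 and 92.0), were under both limits. Their absence from the readings does not show that the transcripts were absent.

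Genes known from astrocytes and radial glia were also split between the cells. Of all named genes, 28.3% were above background in the newborn cell, 30.2% in the embryonic cell and 18.6% in both. Of 23 measured here the counts were 8, 7 and 1, the last being the protease inhibitor gene Cst3 (19988 and 26166). Each of the other 7 in the newborn cell was at least 4-fold higher there. They were the aldolase gene Aldoc (at least 69.2-fold), the brain proteoglycan gene Bcan (at least 37.3-fold), the membrane protein gene Mlc1 (at least 31.9-fold), Gpm6b (at least 20.7-fold), Ttyh1 (at least 20.6-fold), Ndrg2 (at least 17.5-fold) and the growth factor receptor gene Pdgfra (at least 11.9-fold). On the embryonic side were the proteoglycan gene Cspg5 (at least 8.02-fold), the gap junction gene Gja1 (at least 7.21-fold), the metallothionein gene Mt2 (at least 6.11-fold) and the phosphatase gene Ptprz1 (at least 4.04-fold). Aldh1l1 (63.2 and 165), Slc1a2 (126 and 113) and Fabp7 (11.1 and 46.9) were under both limits. Ptprz1 lies just past the threshold, and a second probe set had the same sign with a lower bound short of it. Pdgfra also marks mesenchyme.

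Beside the filament genes Vim, Nes and Gfap, 0 of 15 other intermediate filament and lamin genes were above background in either cell. Among all named genes 30.2% were in the embryonic cell and 28.3% in the newborn cell. The nearest was the lamin gene Lmna in the newborn cell, at 347 under the limit of 349.6. By the limits at the 95th percentile, 113 and 91.8, some would be above background, among them Lmna in both cells (126 and 347). A reading under the limit does not show that a transcript was absent. Among 12 other S100 genes, 2 were above background, both in the newborn cell alone. They were S100a10, which encodes an annexin partner (65.4 and 17822, at least 68.6-fold), and S100a16 (125 and 624, at least 2.40-fold, a bound under the threshold of 4).

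Genes that handle glutamate and glutamine alongside Slc1a3 and Glul were above background for 8 of 12 in the newborn cell and 5 of 12 in the embryonic cell. Among all named genes 28.3% and 30.2% were. The 5 that were at least 4-fold higher in the newborn cell were the glutamine transporter genes Slc38a5 (1.57 and 14971, at least 57.6-fold) and Slc38a3 (88.7 and 3417, at least 13.2-fold), the neutral amino acid transporter gene Slc1a4 (79.0 and 5323, at least 20.5-fold), the aspartate aminotransferase gene Got1 (88.0 and 2469, at least 9.50-fold) and the glutamate dehydrogenase gene Glud1 (1188 and 4784, 4.03-fold, just past the threshold). The glutamine transporter gene Slc1a5 was higher in the embryonic cell (1490.4 and 14.5, at least 4.26-fold). Slc38a3, Slc1a4 and Slc1a5 were each above background in 1 probe set alone, of 2, 3 and 2. The second probe set of Glud1 had the opposite direction (1526 and 198, at least 4.36-fold higher in the embryonic cell), so Glud1 has no settled direction. The mitochondrial aspartate aminotransferase gene Got2 (2162 and 7935, 3.67-fold) had the larger signal in the newborn cell, in its second probe set above background by 1.24-fold. Slc38a2 had it in the embryonic cell, by less than 4-fold in the brighter probe set (9465 and 2768) and at least 5.16-fold in another (1804 and 36.3). The probe sets of Slc38a1 disagreed, with 7911 and 2440.4 in one and 77.0 and 1864 (at least 7.17-fold higher in the newborn cell) in another.

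Of 11 other visual cycle genes measured, 2 were above background in the embryonic cell and 1 in the newborn cell. Among all named genes 30.2% and 28.3% were. The retinol dehydrogenase gene Rdh10 (1688 and 2831) was above background in both cells and Rdh11 (593 and 6.98) in the embryonic cell. None of the 11 was called higher in either cell. Rpe65 (3.76 and 45.1), Rgr (2.63 and 41.3) and Rdh5 (17.9 and 49.5), which pigment epithelium uses to regenerate the chromophore, were under both limits. Of 8 other genes of the lipid-binding family to which Rlbp1 belongs, Mospd2 (at least 9.21-fold) and Bnip2 (at least 4.58-fold) were higher in the newborn cell, each in 1 probe set alone, of 3 and of 8, and Clvs1 (723 and 2199) and Sec14l1 (5589 and 5063) were above background in both.

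**Figure D4:**
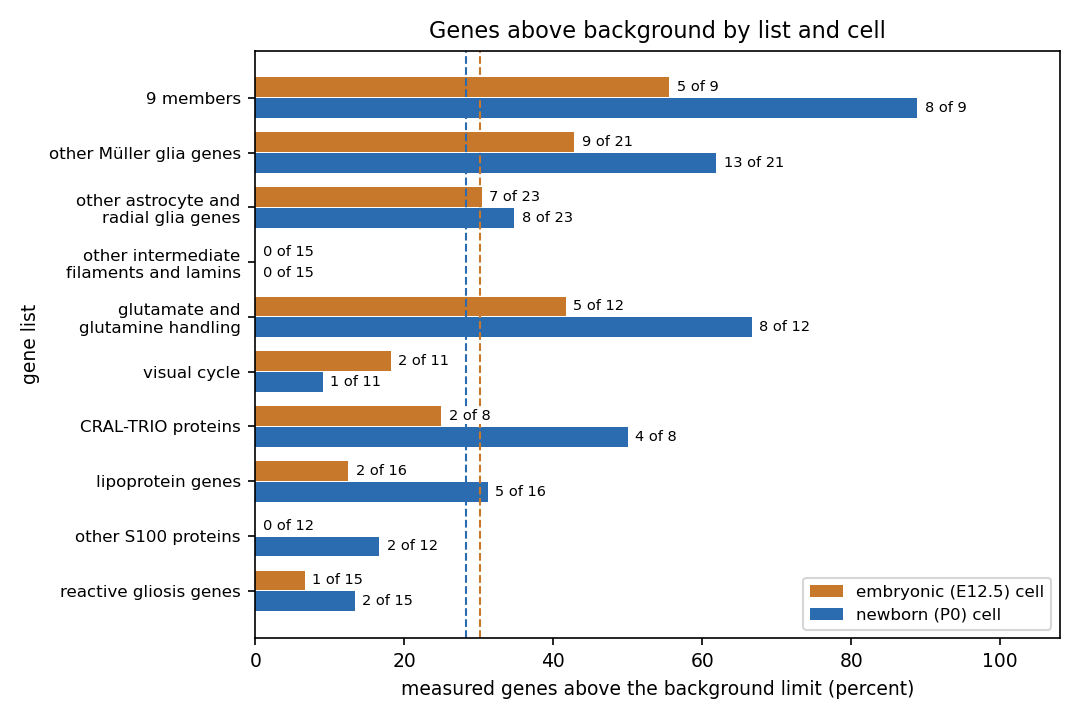
Percent of the measured genes of each list above background in the embryonic cell (orange) and the newborn cell (blue), with the counts beside the bars and the shares over all named genes (30.2% and 28.3%) as dashed lines. All lists had more members above background in the newborn cell, except 2. The visual cycle genes had 2 in the embryonic cell and 1 in the newborn cell, and the other filament genes had 0 in both.

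Markers of other cell types stood as follows beside the readings of Rlbp1, S100b and Gfap. Of 9 pigment epithelium markers, 0 were above background in the newborn cell, where their summed signal was 261, and 1, Trpm1 (6301), in the embryonic cell, where the sum was 6644. None of 5 oligodendrocyte and Schwann cell markers (summed signal 387 in the embryonic cell and 235 in the newborn cell), 10 microglia and macrophage markers (481 and 409) or 6 endothelial markers (356 and 763) was above background. Of 8 mesenchyme and pericyte markers, Col1a2 (2653) and Rgs5 (833) were above it in the newborn cell, with a sum of 3784 against 413 in the embryonic cell, and their part in the results was not tested. Of 7 neuronal markers, Tubb3 (3783) and Gap43 (1457) were above background in the embryonic cell (sum 5441), as was Elavl4 in 1 probe set other than the one used (1381 and 1.79), and 0 in the newborn cell (sum 442). Of 11 retinal progenitor markers, 10 were above it in the embryonic cell and 9 in the newborn cell, among them Sox2 in both, at 10369 and 11739. Their summed signal was 92950 and 43585, and their median log2 ratio -1.15. In the embryonic cell 5 were at least 4-fold higher, namely Sfrp2 (38.4-fold), Ccnd1 (at least 32.0-fold), Fgf15 (at least 25.8-fold), Pax6 (15.4-fold) and Hes1 (8.63-fold). In the newborn cell 2 were, Nr2e1 (at least 13.0-fold) and Lhx2 (7.28-fold). The part of these differences in the readings of the glial genes was not tested.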

How the data were processed

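The deposited values were MAS5 intensities, not log-transformed, that the authors computed from Affymetrix mouse arrays, per the labels' design text and the submitters' processing notes. The MAS5 version is not given in the sources used here. cDNA was primed with oligo dT and amplified by PCR, per the labels' protocols, which favours 3′ ends. Of 45101 probe sets, 34958 had 1 gene symbol in the platform annotation, and 34754 of those were updated by gene identifier (RefSeq, GRCm38.p6). For each of 18194 genes the brightest probe set by mean log2 signal was used, and every probe set of the glial genes is also given. The background probe sets were those of taste, odour and vomeronasal receptors, hair keratin-associated proteins, protamines, defensins, milk caseins, urinary proteins, placental prolactin relatives and egg coat proteins. Genes of the lists by function were named when at least 4-fold higher in 1 cell or above background in both. Others, and the cell type markers named singly, were chosen after their values were seen. Of 33 called genes on the lists by function, 12 had 1 probe set, and 9 had further ones with none above the limit in the brighter cell. The genes, lists and rules were chosen with earlier results of these data known. Listed genes without a probe set of 1 symbol, such as Pax2, were not analysed here. The scoring was tested on simulated data with planted changes well past 4-fold, in genes far above the limit. The noise set there was smaller than the spread between probe sets of a gene. That test does not bear on calls near 4-fold or on signals near the limit. Python 3.11.15 with pandas 2.3.3 was used.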

Additional observations from a re-analysis of the deposited data

How the results depend on the processing

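Other limits, scalings, probe set rules and low-value settings were tried, 1 at a time. Rlbp1 was called higher in the newborn cell under each of them, with log2 ratios from 2.34 to 9.02. S100b was called under each but 1: with 32 casein kinase probe sets kept among the background probe sets the limits were 3181 and 5149.9, and S100b was then above background in neither cell. Casein kinases are made by most cells. Under that setting 2 of the glial genes were above background in the embryonic cell, 4 in the newborn cell and 1 in both, and 1 was at least 4-fold higher in the newborn cell. With the mean over probe sets 3 were above background in the embryonic cell and 3 in both, and 1, Glul, was at least 4-fold higher in the embryonic cell. With a 2-fold threshold 5 were higher in the newborn cell, Slc1a3 and Clu being added. The median log2 ratio became 0.50 when the arrays were scaled to spike-ins. Gfap lost its call when probe sets were averaged, when those marked for cross-hybridisation were left out and with casein kinases. It also lost it with spike-in scaling (log2 ratio at least 1.18). The same held with 263 background probe sets including further families (at least 1.43), an alternative chosen after seeing the data. Both ratios are lower bounds, as the embryonic signal was under the limit. The cause was not tested beyond each setting's construction. With 1 array per age, the number of arrays limits the precision. No paired analysis was possible because there is 1 cell in each group.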

Other observations

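Of 15 reactive gliosis genes, 2 were above background in the newborn cell and 1 in the embryonic cell, against 28.3% and 30.2% of all named genes. The cytokine co-receptor gene Il6st (97.6 in the embryonic cell and 7751 in the newborn cell, at least 29.8-fold) was higher in the newborn cell. So was the endothelin receptor gene Ednrb (5.49 and 1910, at least 7.35-fold), in 1 of 3 probe sets alone. The cytokine signalling inhibitor gene Socs3 (1596 and 69.3, at least 4.56-fold) was higher in the embryonic cell. Its further 2 probe sets were above the limit in that cell too, with the same sign, but their lower bounds fell short of 4-fold. The probe sets of the transcription factor gene Stat3 disagreed, the one used reading 77.1 and 306, under both limits, and another 1.67 and 1559, above background in the newborn cell alone. Lcn2 (4.42 and 7.14), Serpina3n (2.50 and 67.5), Timp1 (54.7 and 93.1) and Cd44 (31.8 and 70.2) were under both limits in every probe set.

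Lipid carriers and receptors related to Apoe and Clu were above background for 5 of 16 genes in the newborn cell and 2 in the embryonic cell. Among all named genes the shares were 28.3% and 30.2%. The cholesterol-esterifying enzyme gene Lcat (62.3 and 10809, at least 41.6-fold), the receptor gene Lrp8 (96.7 and 3468, at least 13.4-fold) and the lipid exporter gene Abcg1 (22.3 and 1384, at least 5.33-fold) were higher in the newborn cell. Lrp8 and Abcg1 were above background in 1 probe set alone, of 3 and of 2. The receptor gene Lrp1 (1110.2 and 3380) and the phospholipid transfer protein gene Pltp (3141 and 1464) were above background in both cells and differed by less than 4-fold. The receptor gene Lrp2 was under both limits in the probe set used but read 6631 and 1.46 in another, at least 19.0-fold higher in the embryonic cell.

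By the distance between pairs of log2 signals in the 2 cells, the named genes closest to Rlbp1 were Cisd1 (26.0 and 14820.1, distance 0.28), Pdlim3 (44.5 and 17951, 0.54) and Map2 (29.9 and 11022, 0.55). Those closest to Glul were Nop53 (8354 and 5071, 0.04), Hdlbp (8793 and 5085, 0.04) and Fam135a (8640.3 and 4868, 0.05). With 2 cells such likeness is a description of 2 values. The embryonic signals of Rlbp1 and of its neighbours named here were under the limit, so that part of their distance compares background readings.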
